A study of Mus musculus with 6 samples.

Results

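The genes Ccl2, Ccl12, Ccl3, Ccl4, Il1a, Il1b and Tnf are 4 chemokines and 3 inflammatory cytokines, chosen by name from the 34203 rows of the count matrix, and all 7 held unique molecular identifiers (UMIs) in microglia. They were followed in the 416 microglia among 658 sequenced cells of the mouse subventricular zone (SVZ), the stem cell niche along the lateral ventricle. Cells came from Nestin-CreERT2:R26-yfp mice, in which tamoxifen-activated Cre under the Nestin promoter turns on YFP in stem cells and their progeny, and all 3 conditions shared this genotype. The conditions were uninjured mice and mice 1 day (PT D1) or 7 days (PT D7) after photothrombosis, a cortical stroke made by light and the dye Rose Bengal, with the SVZ taken from the injured side. Microglia were sorted as CD11b+ CD45low cells, so blood-derived cells with high CD45 were meant to be left out. Each condition had 2 mCEL-Seq2 libraries, the replicates of every test, but the sources used here do not tell which mice went into a library, and p values therefore measure the spread between libraries, which may be technical. The methods put mice of this line at 8 to 12 weeks of age for the tamoxifen injections.

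Chemokines are small secreted proteins that draw cells along a gradient by way of receptors on the target cell. Ccl2 and Ccl12 act on CCR2, the receptor of inflammatory monocytes, whereas Ccl3 and Ccl4 are macrophage inflammatory proteins, which attract macrophages and other white blood cells. Il1a and Il1b both signal through the IL-1 receptor, and Tnf through the TNF receptors. Microglia are a main source of these cytokines in the injured brain, and their transcription depends largely on NF-kappaB, a factor held inactive in the cytoplasm until a receptor is triggered.

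In GRCm39 with GENCODE annotation, the 4 chemokine genes lie on chromosome 11 in 2 groups. Ccl2 (chr11:81926397-81928279, plus strand) and Ccl12 (chr11:81992645-81994466, plus strand) are 64365 bp apart, and Ccl3 (chr11:83538670-83540191, minus strand) and Ccl4 (chr11:83553383-83555509, plus strand) are 13191 bp apart and point away from each other. Il1a (chr2:129140291-129152098) and Il1b (chr2:129206490-129213059) are neighbours on the minus strand, and Tnf lies at chr17:35418357-35420983 on the minus strand. A long non-coding RNA gene on the opposite strand overlaps Ccl3, Il1a and Il1b, and no source used here tells whether the counting used strand. The 250 bases before the start of the canonical transcript are shown for the 4 genes that were higher at PT D1, 5′ to 3′ on the gene's own strand, with any TATAAA in capitals.
Tnf, chr17:35420984-35421233: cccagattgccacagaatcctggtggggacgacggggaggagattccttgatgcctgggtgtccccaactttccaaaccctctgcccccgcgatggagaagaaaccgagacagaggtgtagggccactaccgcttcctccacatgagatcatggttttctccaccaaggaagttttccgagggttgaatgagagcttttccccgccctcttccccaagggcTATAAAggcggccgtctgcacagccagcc
Ccl3, chr11:83540192-83540441: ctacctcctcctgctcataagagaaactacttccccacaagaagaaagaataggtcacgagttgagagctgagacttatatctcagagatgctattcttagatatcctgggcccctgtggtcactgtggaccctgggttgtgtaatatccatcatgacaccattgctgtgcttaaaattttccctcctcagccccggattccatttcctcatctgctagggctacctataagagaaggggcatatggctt
Ccl4, chr11:83553133-83553382: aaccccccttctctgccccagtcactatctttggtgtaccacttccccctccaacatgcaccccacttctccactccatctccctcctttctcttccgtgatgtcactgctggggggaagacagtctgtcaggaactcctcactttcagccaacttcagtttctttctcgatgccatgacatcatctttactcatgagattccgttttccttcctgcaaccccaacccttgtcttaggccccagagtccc
Ccl12, chr11:81992395-81992644: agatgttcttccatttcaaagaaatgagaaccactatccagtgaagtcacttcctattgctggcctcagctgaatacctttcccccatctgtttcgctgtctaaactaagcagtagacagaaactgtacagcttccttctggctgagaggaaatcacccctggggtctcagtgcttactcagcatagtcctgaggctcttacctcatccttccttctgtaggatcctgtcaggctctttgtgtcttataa
Both strands were searched. TATAAA was found before Tnf, from base 29 to base 24 ahead of the start, and before Il1b, from base 31 to base 26, so 2 of the 7 genes held it against 11.9% of the 21584 protein-coding genes searched in the same window. The NF-kappaB consensus was found before 0 of the 7 genes and 7.68% of all genes, and the AP-1 motif TGANTCA before 0 of the 7 and 6.15% of all. These letters may lie outside the window.

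The microglia of a library numbered 54 to 84 and held 294984 to 468186 UMIs, and the median cell held 5247 UMIs in uninjured mice, 5051 in PT D1 mice and 4501.5 in PT D7 mice. Levels are given in CPM, the UMIs of a gene per 1000000 UMIs of the microglia of a library. Together the 7 genes reached 189 and 237 CPM in the uninjured libraries, 887 and 942 CPM at PT D1, and 905 and 813 CPM at PT D7. Both injured conditions thus lay well above the uninjured libraries in this sum and close to each other. In edgeR's quasi-likelihood test over the 6 libraries, 6 of the 7 genes had enough counts to be tested. At PT D1, 4 of these 6 were higher than in uninjured mice at an adjusted p under 0.05 (Ccl3, Ccl4, Ccl12 and Tnf), where 2.72% of the 4846 genes tested were higher. At PT D7, 2 of the 6 were higher than in uninjured mice (Ccl3 and Ccl4), against 0.103% of genes, and 2 of the 6 were lower than at PT D1 (Ccl12 and Tnf), against 2.1%. The median log2 fold change of the 6 genes was 2.22 at PT D1 and 1.45 at PT D7 against uninjured mice, and that of all genes 0.04 and -0.01. The genes were chosen with earlier results of these data known, so these contrasts with all genes are descriptions and no test of the set. Ccl2 and Ccl4 passed the filter on low counts only through injured libraries, and Tnf only through those of PT D1. Their tests, the counts of genes called and the medians thus favour a rise after injury.

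**Figure D1:**
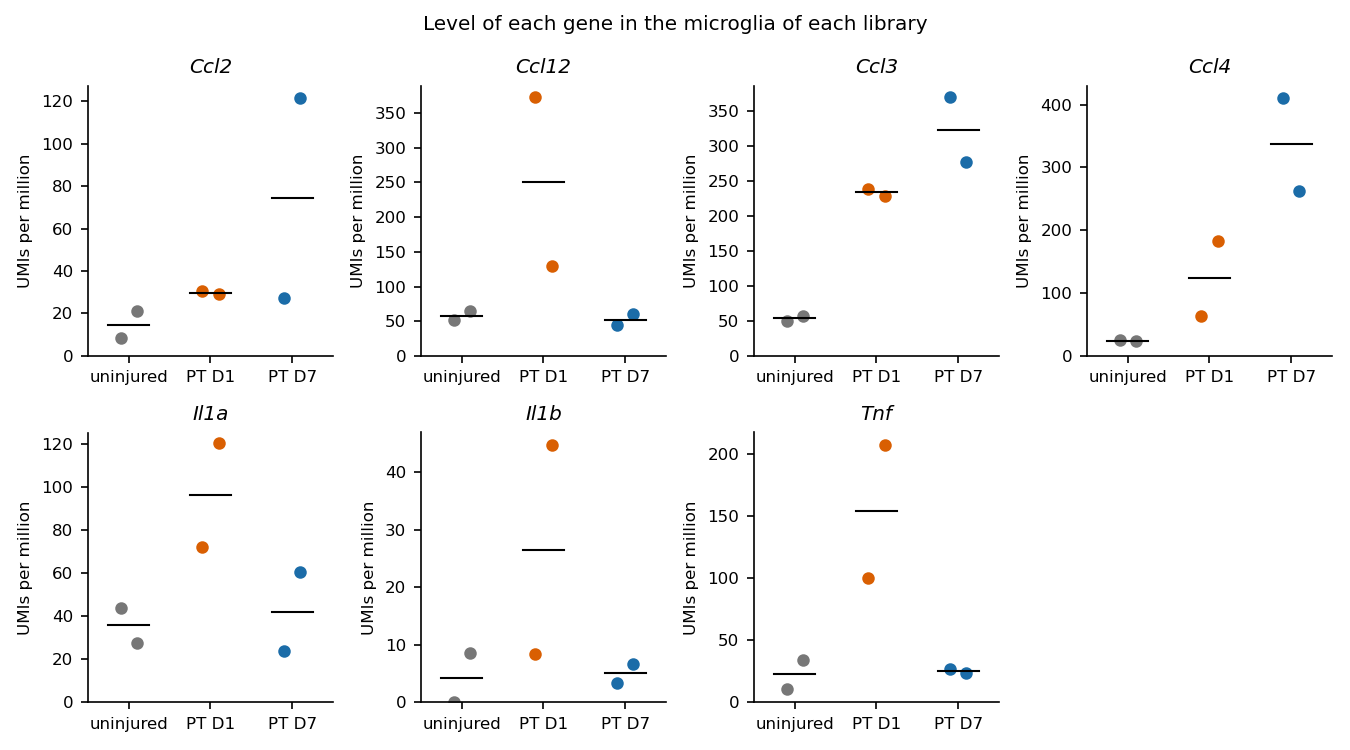
Level of each gene in the microglia of each library, in UMIs per 1000000 UMIs. Points are libraries, 2 per condition, and lines are the means of the 2. Ccl3 and Ccl4 are high in both injured conditions, whereas Tnf and Ccl12 are highest at PT D1, and at PT D7 Tnf lies within and Ccl12 within or below the range of the uninjured libraries.

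Of the macrophage inflammatory proteins, Ccl3 held 49.4 and 57.7 CPM in the uninjured libraries, 239 and 228 CPM at PT D1, and 370 and 277 CPM at PT D7. The 3 conditions did not overlap. Of all genes tested, 27.2% had both PT D1 libraries above both uninjured ones, and 22.7% had both PT D7 libraries above both of PT D1. The log2 fold change of Ccl3 was 2.24 (SE 0.30, edgeR adjusted p = 0.00157) at PT D1 and 2.81 (SE 0.30, edgeR adjusted p = 0.00518) at PT D7. Between the injured conditions it was 0.57, with a 95% interval from -0.01 to 1.16, and did not pass the test (edgeR adjusted p = 0.277). Ccl4 held 24.7 and 23.5 CPM in uninjured mice, 63.9 and 183 CPM at PT D1, and 410 and 263 CPM at PT D7. Both D1 libraries were above the uninjured ones and both D7 libraries above those of D1, as in the shares of all genes given for Ccl3. Its log2 fold change was 2.49 (SE 0.52, edgeR adjusted p = 0.0183) at PT D1 and 4.02 (SE 0.51, edgeR adjusted p = 0.00869) at PT D7. From PT D1 to PT D7 it was 1.54 (edgeR adjusted p = 0.0705, and 0.00477 with the library number as a block). Ccl4 passed the filter on low counts only through injured libraries, so its tests against uninjured mice favour a rise. The cell with the most Ccl3, with 61 UMIs, belonged to PT D7 library 1. Without it the Ccl3 call at PT D7 held, with a log2 fold change of 2.24 (edgeR adjusted p = 0.0146). A cell with 54 Ccl3 UMIs in PT D7 library 2 stayed in that fit. At PT D1 the log2 fold change was still 2.24 (edgeR adjusted p = 0.00182), but no PT D1 or uninjured cell had been left out. Without the cell with the most Ccl4, which belonged to PT D7 library 2, the log2 fold change of Ccl4 was 2.49 at PT D1 and 3.48 at PT D7. Neither passed the test (edgeR adjusted p = 0.144 and 0.410). The PT D1 and uninjured counts were unchanged in that fit, where the 3 conditions share 1 estimate of the spread. The lost call at PT D1 therefore does not show that the rise of Ccl4 there lay in 1 cell. Without the 94 microglia holding 3 or more of 12 stem cell markers, Ccl4 was not called at PT D1 (edgeR adjusted p = 0.182). In that fit neither Ccl3 nor Ccl4, nor any other gene, was called at PT D7 against uninjured mice. Leaving out 1 library also took calls of Ccl3 and Ccl4 away. Without uninjured library 1 the edgeR adjusted p at PT D1 was 0.0535 for Ccl3 and 0.137 for Ccl4, and at PT D7 it was 0.116 for both. Without uninjured library 2 it was 0.153 for Ccl4 at PT D1, and 0.0735 for Ccl3 and 0.0860 for Ccl4 at PT D7. Without PT D1 library 2 that of Ccl4 was 0.0728 at PT D1 and 9.12e-05 between PT D7 and PT D1, and without PT D7 library 1 it was 0.0629 at PT D7.

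The level of Tnf, a cytokine released early in inflammation, was 10.98 and 34.2 CPM in uninjured mice, 100.1 and 208 CPM at PT D1, and 27.1 and 23.6 CPM at PT D7. Both D1 libraries stood above all others, and the D7 libraries lay between the uninjured ones. Of all genes tested, 27.2% had both D1 libraries above both uninjured ones, and 24.1% had both D7 libraries below both of D1. Tnf rose by a log2 fold change of 2.83 at PT D1 (SE 0.48, edgeR adjusted p = 0.00676) and was lower at PT D7 than at PT D1, with a log2 fold change of -2.50 (edgeR adjusted p = 0.0195). Tnf passed the filter on low counts only through the PT D1 libraries, so both tests favour a high level there. At PT D7 its log2 fold change from uninjured mice was 0.33, with a 95% interval from -1.02 to 1.68. Tnf kept its call at PT D1 without its highest cell (2.45, edgeR adjusted p = 0.00709) but not without uninjured library 1 (2.30, edgeR adjusted p = 0.0865), and it was no longer called lower at PT D7 than at PT D1 without either D7 library (edgeR adjusted p = 0.135 and 0.123).

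Of the CCR2 ligands, Ccl12 held 52.2 and 64.1 CPM in uninjured mice, 373 and 130 CPM at PT D1, and 44.1 and 60.7 CPM at PT D7. The rise at PT D1 passed the test, with a log2 fold change of 2.21 (SE 0.44, edgeR adjusted p = 0.0166), and so did the lower level at PT D7 (-2.15 against PT D1, edgeR adjusted p = 0.0278). Most of it came from 1 cell. An Activated MG cell of PT D1 library 1 held 107 of the 192 Ccl12 UMIs of PT D1, and without this cell the log2 fold change was 0.96 and did not pass the test (edgeR adjusted p = 0.135), nor did the difference between PT D7 and PT D1 (-0.92, edgeR adjusted p = 0.198). Leaving out either uninjured library also took the call at PT D1 away (edgeR adjusted p = 0.162 and 0.125). The difference between PT D7 and PT D1 had an edgeR adjusted p of 0.0558 without PT D1 library 1, where its log2 fold change was -1.17, of 0.206 and 0.106 without the D7 libraries, and just above 0.05 without uninjured library 1. Ccl2 held 8.24 and 21.4 CPM in uninjured mice, 30.6 and 29.0 CPM at PT D1, and 27.1 and 121 CPM at PT D7. Its 2 D7 libraries were far apart, and a single cell held 24 of the 36 Ccl2 UMIs of PT D7 library 2. The log2 fold change of Ccl2 was 1.06 (SE 0.69, edgeR adjusted p = 0.412) at PT D1 and 2.44 (SE 0.63, edgeR adjusted p = 0.293, and 0.0111 with the library number as a block) at PT D7. With PT D1 library 1 or 2 left out, the adjusted p at PT D7 was 0.0288 and 0.0215.

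The interleukins were sparse. Il1a held 43.9 and 27.8 CPM in uninjured mice, 72.3 and 121 CPM at PT D1, and 23.7 and 60.7 CPM at PT D7. Its log2 fold change at PT D1 was 1.58 (SE 0.43), with an edgeR adjusted p of 0.0539, and 0.00591 with the library number as a block. It was 0.00262 without PT D1 library 1 and 0.0385 without PT D7 library 2, and from PT D1 to PT D7 the log2 fold change of -1.12 had an edgeR adjusted p of 0.196, and of 0.0408 without PT D1 library 1. Both PT D1 libraries were above both uninjured ones, which also held for 27.2% of all genes. Il1b, which is made as an inactive precursor, had 0 and 4 UMIs in the uninjured libraries, 3 and 20 in those of PT D1, and 1 and 2 in those of PT D7. These counts did not pass the filter on low counts. Without the filter the log2 fold change of Il1b at PT D1 was 2.54 (edgeR adjusted p = 0.0434), and in DESeq2 it was 2.72 (unadjusted p = 0.0889, with no adjusted p given). A count of 0 in uninjured library 1 allows up to 8.24 CPM. In PT D1 library 2 a single cell held 10 of the 20 UMIs, and the same cell held the most Tnf and Il1a of all microglia, with 33 and 15 UMIs.

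**Figure D2:**
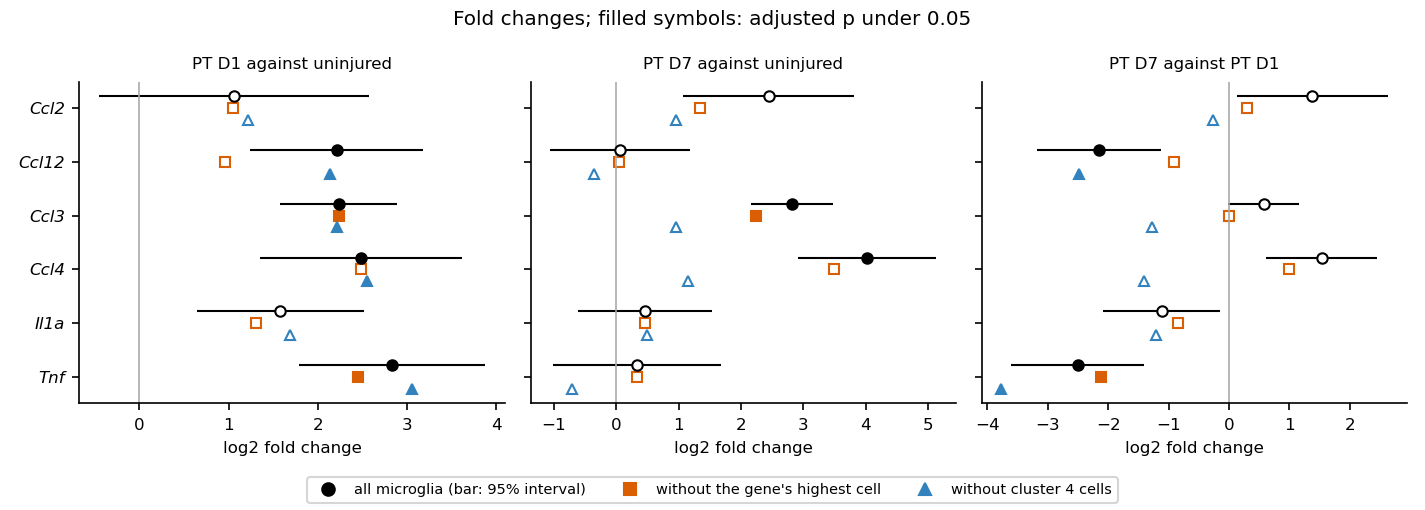
Fold changes (log2) of the 6 genes tested in microglia, from edgeR over 6 libraries, for the 3 comparisons. Circles are all microglia with 95% intervals, squares leave out the cell with the most UMIs of that gene, triangles leave out the Disease-associated MG (cluster 4), and filled symbols have an adjusted p under 0.05. Ccl12 and Ccl4 each lose their calls without their highest cell, though the PT D1 and uninjured counts of Ccl4 are unchanged in that fit. Ccl3 and Ccl4 at PT D7 lose theirs without cluster 4.

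A few cells held most of the UMIs of the 7 genes. A cell with 10 or more UMIs of any of the 7 genes, a limit set after the counts were seen, was found 13 times among the 416 microglia. These 13 cells held 787 of the 1429 UMIs of the 7 genes in microglia, or 55.1%. None of them came from the uninjured libraries, where no cell had more than 6 UMIs of a gene, while PT D1 libraries 1 and 2 had 3 and 5 and PT D7 libraries 1 and 2 had 3 and 2. The cells differed in what they held. At PT D7, 4 Disease-associated MG held mainly Ccl3 and Ccl4. The first, of library 2, had 54 UMIs of Ccl3, 65 of Ccl4 and 24 of Ccl2, and the second, of library 1, had 61 of Ccl3, 63 of Ccl4 and 0 of Il1a, Il1b and Ccl12. At PT D1, the cell with 107 UMIs of Ccl12 had 4 of Ccl3 and 1 of Tnf, another Activated MG had 28 of Ccl3 and 30 of Ccl4, and the cell with 33 UMIs of Tnf had 12 of Ccl3 and 10 of Il1b. No cell reached 10 UMIs of more than 4 of the 7 genes. The 13 cells had a median of 9839 UMIs, more than the 4854.5 of all microglia, and ranged from 1100 to 22343 UMIs, and the part of depth in these counts was not tested.

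**Figure D3:**
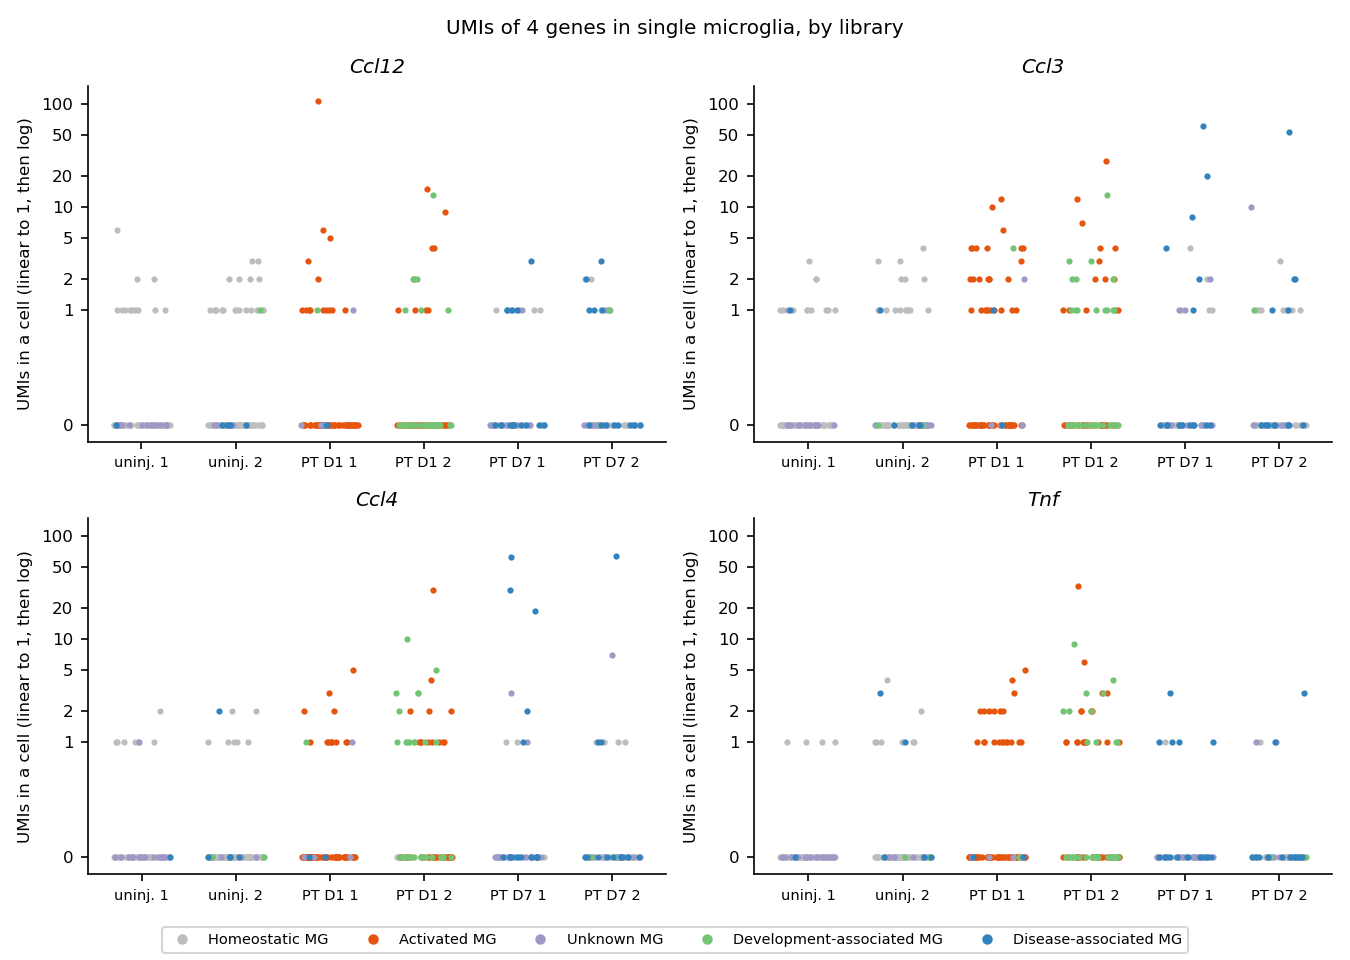
UMIs of Ccl12, Ccl3, Ccl4 and Tnf in each microglial cell, by library and coloured by the authors' subtype. The axis is linear from 0 to 1 and logarithmic above. Most cells hold 0, 1 or 2 UMIs, and cells with 10 or more occur only in the injured libraries.

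Without these 13 cells, whose choice by outcome allows no test, the levels split the genes by condition. Tnf still held 91.4 and 100.3 CPM at PT D1, against 10.98 and 34.2 CPM in uninjured mice. Ccl3 held 177 and 115 CPM at PT D1, and Ccl4 44.2 and 100.3 CPM, all above the uninjured libraries. Ccl12 held 56.0 and 55.2 CPM at PT D1, within its uninjured range. At PT D7, Ccl4 was left with 32.7 and 22.9 CPM and Ccl3 with 72.6 and 68.7 CPM, and the 7 genes together held 196 and 259 CPM, against 189 and 237 CPM in uninjured mice. The higher level at PT D1 was thus spread over many cells for Tnf and Ccl3, whereas at PT D7 most of it lay in 5 cells.

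The share of cells with a UMI gave the same split. For Tnf it was 5.63% and 11.9% in the uninjured libraries, 29.6% and 39.5% in those of PT D1, and 11.1% and 8.33% in those of PT D7. For Ccl3 it was 19.7% and 20.2%, then 42.3% and 36.8%, then 25.9% and 26.7%, and for Ccl4 11.3% and 9.52%, then 21.1% and 35.5%, then 16.7% and 13.3%. Ccl4 thus had its highest summed level at PT D7 and its highest share of cells at PT D1. Ccl12 was found in 21.9%, 21.1% and 21.1% of the microglia of uninjured, PT D1 and PT D7 mice, with exact 95% intervals of 15.7% to 29.3%, 14.8% to 28.6% and 14.0% to 29.7%. Each share lay within the intervals of the others, while the Ccl12 UMIs summed to 49 in uninjured mice and 192 at PT D1. Il1a was found in 10.97%, 25.2% and 14.0%, Ccl2 in 5.81%, 12.2% and 13.2%, and Il1b in 2.58%, 7.48% and 2.63%. After random thinning of every cell to 1000 UMIs, Tnf was left in 1.94%, 12.2% and 0.877% of microglia (intervals 0.401% to 5.55%, 7.42% to 18.7% and 0.0222% to 4.79%), and Ccl3 in 5.16%, 12.9% and 7.02% (2.25% to 9.92%, 7.96% to 19.4% and 3.08% to 13.4%). Ccl4 was left in 1.94%, 8.16% and 7.02% of cells (0.401% to 5.55%, 4.29% to 13.8% and 3.08% to 13.4%). These intervals cover counting error over cells only, and the thinned shares are those of 1 random draw. The shares expected over all draws were 1.77%, 10.0% and 2.08% for Tnf and 5.29%, 15.1% and 10.2% for Ccl3. For Ccl4 they were 2.22%, 9.63% and 6.13%. At least 1 of the 7 genes was found in 58.1% of uninjured, 80.3% of PT D1 and 56.1% of PT D7 microglia, and in 20.6%, 36.1% and 24.6% after thinning.

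**Figure D4:**
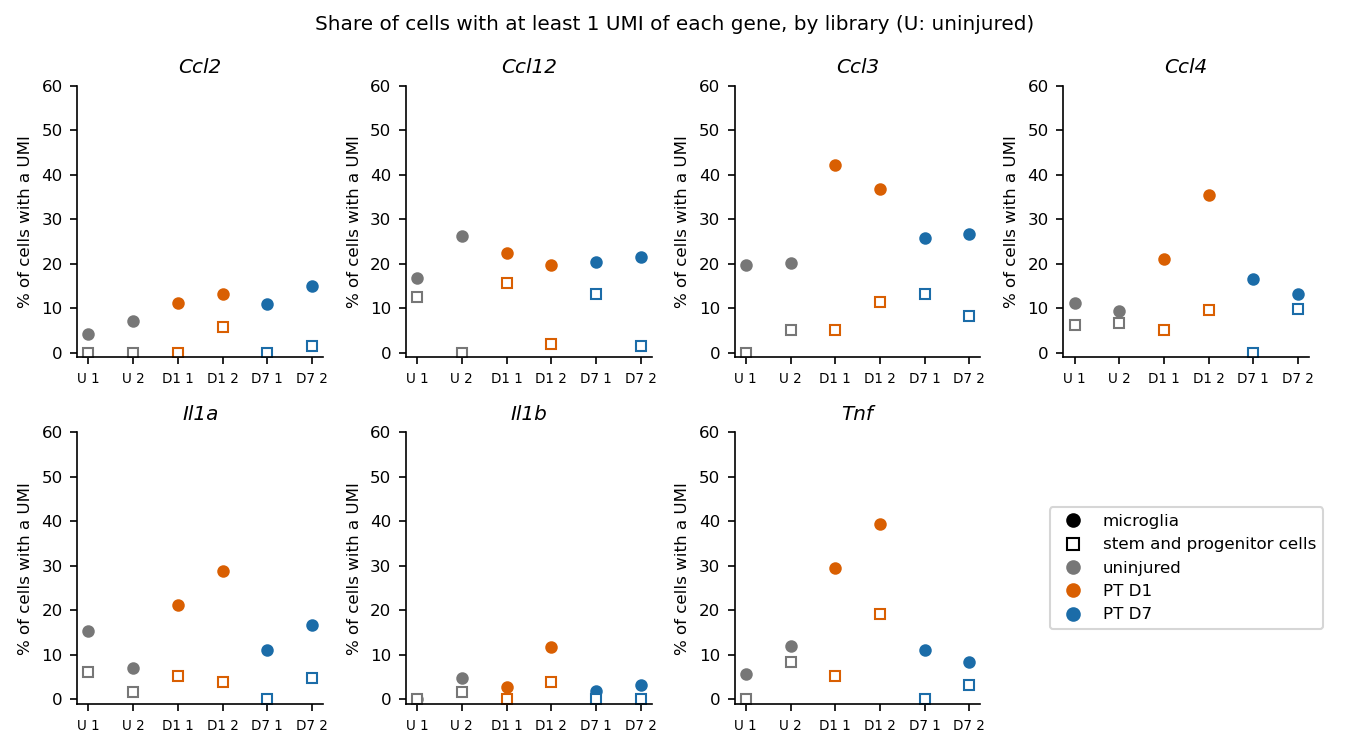
Share of cells with at least 1 UMI of each gene in each library, in percent of cells. Filled circles are microglia and open squares neural stem and progenitor cells, used to gauge the background, and U stands for uninjured. Tnf and Ccl3 are found in the largest share of microglia at PT D1, whereas Ccl12 stays near a level share.

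The neural stem and progenitor cells (NSPCs) of the same libraries, which are not known as a main source of these genes, were used to gauge the background. Their 222 cells had a median of 6449 UMIs and held 86 UMIs of the 7 genes, 54.7 CPM against 640 CPM in microglia, and 29.7% of them had at least 1, against 65.4% of microglia. The level in NSPCs was highest at PT D1, with 93.5 CPM against 29.3 CPM in uninjured mice and 48.1 CPM at PT D7. Tnf was found in 6.67%, 15.5% and 2.63% of NSPCs and in 9.03%, 34.7% and 9.65% of microglia. In uninjured mice the share of microglia with Tnf was thus near that of NSPCs, whose median cell was deeper, with 7002 UMIs against 5247. The Tnf level there was 24.0 CPM in microglia and 8.15 CPM in NSPCs, from 20 and 5 UMIs. Il1b was found in 1.33% of NSPCs in uninjured mice and 2.82% at PT D1, and in 0 of 76 at PT D7, which allows a share of up to 3.95%, above the 2.63% of microglia. Ccl3 was found in 4%, 9.86% and 9.21% of NSPCs and Ccl4 in 6.67%, 8.45% and 7.89%, and no NSPC held 3 or more of the 7 genes, whereas 47 microglia did. In PT D1 library 2, 3 NSPCs held 11 UMIs of Ccl2, 32.6 CPM over its NSPCs, against 13 UMIs and 29.0 CPM in the microglia of the same library. One of these NSPCs held 8, more than the 2 of any PT D1 microglial cell, and whether all UMIs in NSPCs are background was not tested.

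How often neighbouring genes met in a cell was counted as a description, since both counts share the depth of the cell. At PT D7, 9 of the 17 microglia with Ccl4 also had Ccl3, against 21 of the 97 without Ccl4. At PT D1 these counts were 21 of 42 and 37 of 105, and in uninjured mice 5 of 16 and 26 of 139. For the neighbours Ccl2 and Ccl12, of the 18 microglia with Ccl2 at PT D1, 6 also had Ccl12, against 25 of 129 without, and at PT D7 it was 3 of 15 against 21 of 99. For the interleukins, 7 of the 11 cells with Il1b at PT D1 also had Il1a, against 30 of 136 without. Cells with a UMI of a gene had more UMIs in all, such as a median of 6450 at PT D7 for cells with Ccl4 and 4465 for those without.

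The authors sorted the microglia into 5 subtypes, Homeostatic MG (175 cells), Activated MG (104), Unknown MG (59), Development-associated MG (41) and Disease-associated MG (37). Uninjured and PT D7 mice shared Homeostatic MG, with 124 of 155 and 50 of 114 cells, and Unknown MG, with 22 and 33 cells. By contrast, all 104 Activated MG and 36 of the 41 Development-associated MG came from PT D1 and 29 of the 37 Disease-associated MG from PT D7, so for these subtypes the subtype and the condition cannot be told apart. The subtypes were drawn from the same counts, and their levels are descriptions. In uninjured mice, Homeostatic MG held 97.96% of the Ccl12 UMIs, 93.3% of Ccl3 and 80% of Tnf, and they were 80% of cells. At PT D1, where 70.7% of cells were Activated MG, these held 88.5% of the Ccl12 UMIs, 78.7% of Ccl3, 77.5% of Tnf and 65.7% of Ccl4. For Ccl12, 1 of these cells held 107 of the 192 UMIs, so its share rests largely on that cell. Tnf stood at 182 CPM in Activated MG and at 130 CPM in Development-associated MG of PT D1, and Ccl4 at 126 CPM and 157 CPM. Development-associated MG came almost wholly from PT D1 library 2, with 35 of 41 cells, so these values are largely those of 1 library.

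At PT D7 most UMIs of Ccl2, Ccl3 and Ccl4, but not of Ccl12, lay in Disease-associated MG. These were 29 of 114 cells and held 81.7% of the Ccl3 UMIs, 91.5% of Ccl4 and 79.5% of Ccl2, but 48.4% of Ccl12 and 40% of Il1a. Their Ccl3 level was 773 CPM, against 108 CPM in the Homeostatic MG and 69.4 CPM in the Unknown MG of PT D7, and their Ccl4 level was 902 CPM, against 32.4 and 54.5 CPM. The share of cells was less apart, with Ccl3 in 37.9% of Disease-associated MG and 28% of Homeostatic MG, and Ccl4 in 27.6% and 12%. Few Disease-associated MG thus held most of the subtype's Ccl3 and Ccl4 UMIs. Their median cell held 6450 UMIs, against 3769.5 in the Homeostatic MG of PT D7, and the part of depth in these shares was not tested. With Disease-associated MG left out of all libraries, 0 of the 6 genes were called at PT D7 (2 genes in all by edgeR), Ccl3 had a log2 fold change of 0.95 and Ccl4 of 1.143 (edgeR adjusted p = 0.993 for both), and 4 were still called at PT D1. At an unadjusted p under 0.05, 1 of the 6, Ccl3, passed at PT D7 in that fit. With the Activated MG left out, Ccl3 and Ccl4 were still called at PT D1 (1.67, edgeR adjusted p = 0.0275, and 2.51, edgeR adjusted p = 0.00909), whereas Tnf (2.22, edgeR adjusted p = 0.0529) and Ccl12 (0.62, edgeR adjusted p = 0.461) were not. That fit compares 43 PT D1 cells, mostly Development-associated MG of library 2.

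**Figure D5:**
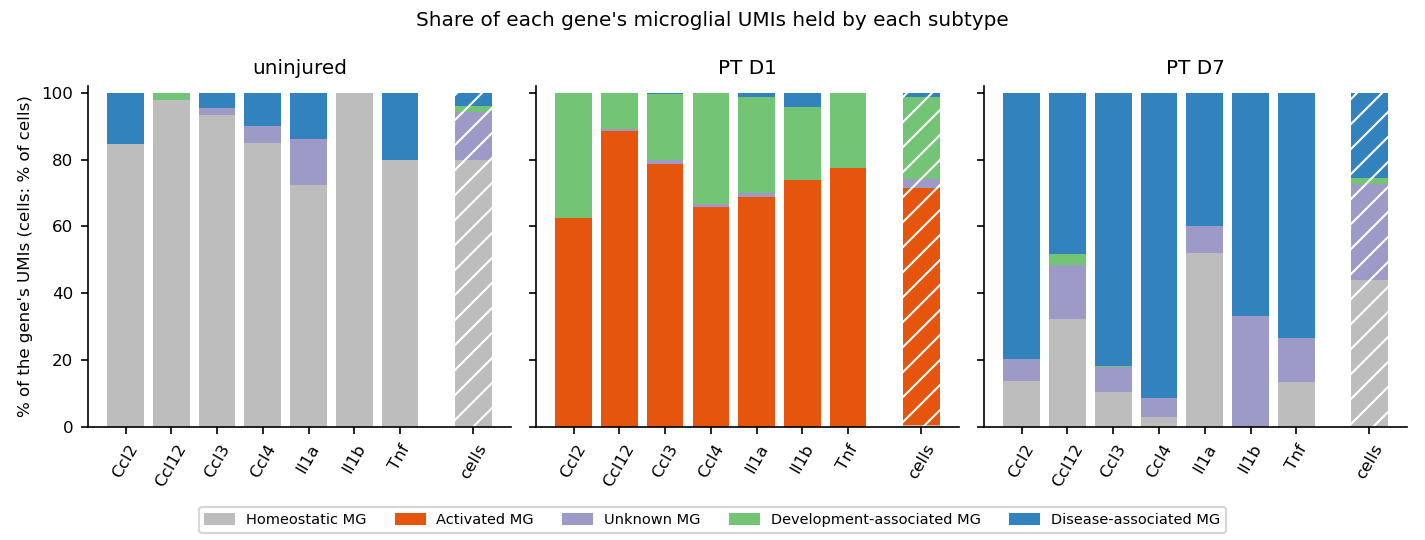
Share of each gene's microglial UMIs held by the authors' 5 subtypes in each condition, in percent, with the share of cells in the hatched bar. At PT D7, Disease-associated MG are 25.4% of cells and hold 91.5% of the Ccl4 UMIs, and at PT D1, Activated MG hold 88.5% of the Ccl12 UMIs. A single Activated MG cell holds 107 of the 192 Ccl12 UMIs of PT D1.

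Among receptors of the 7 genes, Il1r2 was higher at PT D1. Over all genes tested, 22% passed an unadjusted p under 0.05 at PT D1, 7.33% at PT D7 against uninjured mice and 18.7% between the injured conditions. Of 9 receptor genes 3 were tested, 1 of them was higher and 0 were lower at PT D1, and 0 passed at PT D7 against uninjured mice in edgeR, in DESeq2 or at an unadjusted p under 0.05. Il1r2, the decoy receptor that takes up IL-1 without a signal, had 1 and 5 UMIs in the uninjured libraries, 59 and 58 in those of PT D1, and 1 and 0 in those of PT D7, and rose by a log2 fold change of 4.42 at PT D1 (SE 0.49, edgeR adjusted p = 0.000653). It was found in 11.3% of all microglia. Il1r2 passed the filter on low counts only through the PT D1 libraries, so its test and the count of 1 in 3 favour a rise there.

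The other chemokines and cytokines were mostly too low to test. Of 15 other chemokines 5 were tested, and 2 were higher at PT D1, against 2.72% of all genes tested by edgeR, while DESeq2 called 1. Cxcl2, which attracts neutrophils, rose by a log2 fold change of 4.10 (SE 0.43, edgeR adjusted p = 0.000523) and was lower at PT D7 than at PT D1 (-3.92, edgeR adjusted p = 0.00125), the course of Tnf. Cxcl10, an interferon-induced chemokine, had 0 and 1 UMIs in the uninjured libraries, 10 and 24 in those of PT D1 and 0 in both of PT D7, and was higher at PT D1 than in uninjured mice (edgeR adjusted p = 0.0266). Cxcl2 and Cxcl10 passed the filter on low counts only through the PT D1 libraries, so their tests and the count of 2 in 5 favour a rise there. Ccl6 was higher at PT D7 than at PT D1 (2.31, SE 0.47, edgeR adjusted p = 0.0212). Of 15 other cytokines 4 were tested, and edgeR and DESeq2 called 0 of them in any comparison. At an unadjusted p under 0.05, 1 of these passed at PT D7 against uninjured mice and 1 between the injured conditions. Of 10 genes for the processing and release of IL-1 and TNF, such as the protease genes Casp1 and Adam17, 5 were tested and 0 were called by either tool in any comparison, whereas at an unadjusted p under 0.05, 0 passed at PT D1 and 2 at PT D7 against uninjured mice, and 3 passed between the injured conditions.

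Of 15 NF-kappaB subunits and feedback genes, 11 were tested and 3 were higher at PT D1, where DESeq2 called 1. Of all genes tested by edgeR, 2.72% were higher at PT D1. Ier3 rose by a log2 fold change of 3.30 (SE 0.32, edgeR adjusted p = 0.000484), Nfkbia, the inhibitor that NF-kappaB itself induces, by 1.17 (SE 0.25, edgeR adjusted p = 0.0209), and Icam1, an adhesion molecule, by 1.32 (SE 0.34, edgeR adjusted p = 0.0460). Ier3 (-3.12) and Nfkbia (-1.81) were lower at PT D7 than at PT D1 (edgeR adjusted p = 0.000948 and 0.00323). At PT D7 against uninjured mice 0 of the 11 were called by edgeR or DESeq2, and 1 passed at an unadjusted p under 0.05. These values are sums over all microglia, and the few cells with most of the Ccl3 and Ccl4 UMIs of PT D7 were not examined for these genes. The median log2 fold change of the 11 genes was 1.32 at PT D1 and 0.10 at PT D7. Some of the 11 passed the filter on low counts only through the PT D1 libraries. This median and the count of 3 in 11 thus favour a rise there. Of 7 genes for the decay of cytokine mRNA, Zfp36l2 was called at PT D1 by edgeR (0.94, SE 0.24, edgeR adjusted p = 0.0478) but 0 by DESeq2, and 0 were called at PT D7 by edgeR, by DESeq2 or at an unadjusted p under 0.05.

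Digestion with papain at 37 °C for 10 min can itself induce early genes. Of 21 immediate early and heat shock genes 16 were tested, and 4 were higher at PT D1, against 2.72% of all genes tested by edgeR, while DESeq2 called 1. At PT D7 against uninjured mice 0 were called by edgeR or DESeq2, and 1 passed at an unadjusted p under 0.05. Dusp1 rose by a log2 fold change of 2.81 (SE 0.33, edgeR adjusted p = 0.00104), Fosl2 by 2.26, Ier2 by 1.94 and Klf6 by 1.38 (edgeR adjusted p = 0.0368, 0.0499 and 0.0120). Fosl2 passed the filter on low counts only through the PT D1 libraries, so its test and the count of 4 in 16 favour a rise there. The listed genes summed to 2116 and 2687 CPM in the uninjured libraries, 2547 and 4422 CPM at PT D1, and 1620 and 2139 CPM at PT D7. The sum thus stood apart only in PT D1 library 2. Gene by gene, 9 of the 16 passed an unadjusted edgeR p under 0.05 at PT D1, against 22% of all genes. Their median log2 fold change there was 0.93, against 0.04 for all genes. PT D1 library 2 also had more Tnf, Ccl4, Il1a and Il1b than PT D1 library 1 but less Ccl12, Ccl3 and Ccl2. Without the cell with 107 Ccl12 UMIs, library 1 held 77.2 CPM of Ccl12, less than the 130 CPM of library 2. The part of the immediate early and heat shock genes in the result was not tested.

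The sorted cells carried the genes of microglia, with all 10 identity markers found in every library. Their summed level was 15307 and 15287 CPM in uninjured mice, 7562 and 5225 CPM at PT D1, and 11455 and 11163 CPM at PT D7. By edgeR, 7 of the 10 were lower at PT D1 than in uninjured mice, against 2.97% of all genes tested. Markers of monocytes and border macrophages summed to 143 and 132 CPM in uninjured mice, 25.02 and 91.6 CPM at PT D1, and 108 and 27.0 CPM at PT D7, with Ly6c2 at 0 throughout. This sum was lower in each injured library than in the uninjured ones, but only 1 of the 10 markers had enough counts to be tested. Whether such cells added to the levels of the 7 genes was not tested. The 13 cells with 10 or more UMIs of a gene held 0 UMIs of these 10 markers, and each held 4 to 9 of the 10 microglial markers, at 6381 CPM in all. Most other microglia held none of the monocyte and border macrophage markers either. Any of them was found in 24 of the 139 other PT D1 and 19 of the 109 other PT D7 microglia, so 0 in 13 cells tells little. Of 7 neutrophil markers the libraries summed to 161 to 310 CPM, nearly all from Csf3r and Cxcr2, with Ly6g, Retnlg and Mmp9 at 0, and lymphocyte markers summed to 6.75 to 27.1 CPM. The 12 stem cell and neuroblast markers summed to 357 and 953 CPM in uninjured mice, 217 and 342 CPM at PT D1, and 251 and 695 CPM at PT D7. In 94 microglia 3 or more of the 12 were found. This held for 2 of the 13 cells, 14 of the 139 other PT D1 and 18 of the 109 other PT D7 microglia. The part of these markers in the result was not tested. Choroid plexus and ependymal markers summed to 10533 and 4663 CPM in the uninjured libraries and to 202 to 617 CPM after injury. Of these 6 markers 2 were tested, Ttr and Enpp2, and both were lower in both injured conditions. Of all genes tested, 2.97% were lower at PT D1 and 0.0619% at PT D7. The part of the choroid plexus and ependymal markers in the lower uninjured levels of the 7 genes was not tested.

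Genes with a like course over the 6 libraries were sought among 2330 genes with a mean of at least 50 CPM, as a description. Tnf was most like Stat3 (Pearson r = 0.971), Psat1 (0.971) and Icam1 (0.970), and Ccl4 most like Pnpla7 (0.984), Psme1 (0.969) and Axl (0.969). Ccl12 was most like Fam76a (0.984), Vapa (0.983) and Il4ra (0.973), Ccl3 like Rpl28 (0.988), Gm8225 (0.981) and Rpl7 (0.980), Il1a like Zfand3 (0.980), Ndufa4 (0.977) and Rpl4 (0.973), and Ccl2, compared with 2331 genes, like Hnrnpd (0.979), Gtpbp1 (0.966) and Rps15 (0.952). With 6 points such values are common, and 16 to 65 genes were above 0.9 for each.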

How the data were processed

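The authors sorted single cells into plates, made mCEL-Seq2 libraries of 192 cells with a 6-base UMI and cell barcode, demultiplexed reads with bcl2fastq 2.17.1.14 (submitters' notes) and aligned them to GRCm39. The sources used here do not name the aligner, counter or annotation. The authors kept cells with over 1000 UMIs, under 3 median absolute deviations from the median (their doublet filter) and at most 25% mitochondrial UMIs, a percent value that their deposited cell table gives for each cell. The deposited counts are whole UMIs per gene and cell, not normalized. Classes and subtypes came from the authors' cell table, of whose columns 13 were not used. All 658 cell names were distinct.

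The members and gene lists were chosen with earlier results of these data known. One gene of the receptor list is not reported here, and the counts of that list leave it out. All 7 genes are named in each comparison, and other list genes only if called in at least 1 comparison, apart from Casp1, Adam17 and the markers Ly6c2, Csf3r, Cxcr2, Ly6g, Retnlg and Mmp9, named after their values were seen. UMIs were summed over the microglia of each library, and edgeR 4.0.16 was fitted to the 6 libraries of the 3 conditions (TMM, filterByExpr, quasi-likelihood F-test), with Benjamini-Hochberg adjustment over 4846 genes and a call at an adjusted p under 0.05. The biological coefficient of variation was 0.233. The fit was also run on simulated library counts, drawn with a dispersion near that of these data. They hold no single cells that dominate a gene, so they do not cover that case. DESeq2 1.42.0 was an alternative. PT D7 library numbers were read from the fourth field of the cell names. Deviations of libraries of the same number correlated at 0.209, 0.184 and 0.254 between the conditions, so the fit with the number as a block is given where it changes a call. No source states that a number marks a batch, and plates or batches cannot be told apart from conditions. Shares have exact Clopper-Pearson 95% intervals, and a count of 0 allows up to 3 counts; both cover counting error only. Fits without the highest cell and without cluster 4 were chosen after the data were seen.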

Additional observations from a re-analysis of the deposited data

Results flagged for a closer look

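Tnf and Ccl12 changed differently at the 2 times after photothrombosis, by the test between PT D7 and PT D1. The log2 fold change from uninjured mice was lower at PT D7 than at PT D1, with a difference of -2.50 for Tnf (edgeR adjusted p = 0.0195) and -2.15 for Ccl12 (edgeR adjusted p = 0.0278). Both D7 libraries lay below both D1 libraries for each gene, which also held for 24.1% of all genes tested. Tnf passed the filter on low counts only through the PT D1 libraries, so its test favours a high level there. The value of Ccl12 was -0.92 without its highest cell (edgeR adjusted p = 0.198), and that of Tnf was -2.12 (edgeR adjusted p = 0.0231). Over the alternatives the adjusted p ranged from 1.34e-06 to 0.569 for Ccl12 and from 1.34e-06 to 0.135 for Tnf.

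The 20 cells that the authors classed as neither microglia nor NSPC were used in no comparison. They held 12 UMIs of the 7 genes in 8 cells at PT D1, against 1 UMI in 4 cells of uninjured mice and 1 UMI in 8 cells at PT D7. Per 1000000 UMIs this was 182 at PT D1, 18.1 in uninjured mice and 15.3 at PT D7, and 4, 1 and 1 of these cells had a UMI.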

How the results depend on the processing

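In all microglia 4, 2 and 2 of the 7 genes, and 276, 8 and 184 of all genes, were called at PT D1 against uninjured mice, at PT D7 against uninjured mice and at PT D7 against PT D1, and counts below follow this order. With the replicate block 5, 3 and 3 of the 7 genes and 639, 43 and 462 of all were called, and with no filter on low counts 6, 3 and 3 and 541, 35 and 422. DESeq2 called 4, 2 and 2 of the 7 and 80, 9 and 70 of all. With at least 10 UMIs in every library, which left 2 of the 7 genes in the test, 2, 1 and 1 were called and 4 of all genes at PT D7. With cells thinned to 1000 UMIs, which left 3 of the 7, 0, 0 and 0 and 56, 1 and 22 of all were called. With at most 10% mitochondrial UMIs the calls were 2, 0 and 1 of the 7, with each gene's highest cell left out 2, 1 and 1, without Activated MG 2, 2 and 0, and without cells of 3 or more stem cell markers 3, 0 and 2, with 0 of all genes at PT D7. At PT D7, 16 of all genes were called without Unknown MG, 19 without Development-associated MG and 2 without Disease-associated MG, where 0 of the 7 were called. Without Development-associated MG, 281 were called at PT D7 against PT D1. The fit of only the 2 conditions compared called 1 of the 7 and 94 of all between PT D7 and PT D1. Leaving out 1 library gave 0 to 5, 0 to 3 and 0 to 3 of the 7 genes and 45 to 538, 0 to 38 and 46 to 418 of all, with the fewest at PT D1 and PT D7 without uninjured library 1 and the fewest between them without PT D7 library 1. There a lone library of a condition is assumed to vary like the others.

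Of the log2 fold changes called, 0 turned under any alternative, and those that turned were uncalled. At PT D7 against uninjured mice Ccl12 (0.06 in all microglia) was -0.038 with at least 10 UMIs in every library, -0.092 with at most 10% mitochondrial UMIs, -0.17 without TMM, -0.0021 without Development-associated MG and -0.35 without Disease-associated MG, and -0.091 to 0.17 with 1 library left out. Il1a (0.46) was -0.34 with at most 10% mitochondrial UMIs and -0.37 without cells of 3 or more stem cell markers, and -0.26 to 0.89 with 1 library left out, and Tnf (0.33) was -1.01 in thinned cells, -0.71 without Disease-associated MG and -0.18 to 1.35 with 1 library left out. Between PT D7 and PT D1, Ccl3 (0.57) was -0.20 in thinned cells and -1.27 without Disease-associated MG, where Ccl4 was -1.42 and Ccl2 -0.26. Without TMM the median log2 fold change of all genes was -0.09, -0.25 and -0.11. Depth limits Il1b most, with 30 UMIs in all microglia.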
